A study of Eurytemora affinis with 4 samples.

Results

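The loci described here are the abundant transcribed loci of adult *Eurytemora affinis* whose levels were close to equal in females and males. They were chosen from the authors' table of 61672 transcribed loci by 5 conditions. Cuffdiff had to have tested the locus, no other locus could be listed at the same scaffold position, and the span had to be 1000 to 20000 bases. FPKM (fragments per kilobase of transcript, scaled to the sequenced fragments) had to reach 20 in each sex, and the higher sex could be at most 1.5 times the lower. Of the 41996 loci that Cuffdiff tested, 27789 had a position of their own and 16145 of these had a span in the range. Among those 16145 loci, 689 reached 20 FPKM in both sexes, and 353 of the 689 stayed within the ratio of 1.5. These 353 loci are called the shared loci below. Their female and male levels chose them, so those levels are descriptions and were not tested.

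*E. affinis* is a small calanoid copepod of estuaries and coastal waters. The libraries were made from poly(A) RNA of pooled, culture-reared whole adults, with 2 libraries of females and 2 of males. Both sexes were reared at 13 °C and 15 PSU under 15 h light and 9 h dark. They were kept apart for 2 days, and gut contents were cleared during the last 24 h by starvation with beads of 6.0 µm at 120 µL per L, per the labels' protocols. The labels name no genotype and do not state that the pools were of separate cultures. The deposited values are pooled by sex, so no value, error or depth per library can be given, and the authors' p-values may measure only technical spread.

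A whole adult contains gonads, muscle, gut, nervous tissue and cuticle-forming cells. Females and males of calanoid copepods differ most visibly in the gonads and in the limbs used for mating, whereas genes for protein synthesis, energy supply and the cytoskeleton are needed by nearly every cell of both sexes. RNA of a whole-animal pool adds up all cell types, so fewer cells of a type and less RNA per cell cannot be told apart. Gene names are not paired with loci in the tables, so no function is assigned to any locus below, and no marker of a tissue could be checked. Positions are counted from 1 on the authors' scaffolds, and the sources used here give no build.

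Most shared loci lay near the lower end of the abundance range. The median FPKM was 40.8 in females and 40.3 in males, and the levels ran from 20.2 to 1303 in females and from 20.2 to 1803 in males, in the authors' deposited table. By the FPKM of the lower sex, 231 loci (65.4%) lay between 20 and 50, 64 between 50 and 100, 50 between 100 and 500, and 8 at 500 or more. The levels were slightly higher in males for 181 loci and in females for 172. The ratio of the higher to the lower sex had a median of 1.19. It was at most 1.1 for 92 loci and above 1.4 for 54.

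**Figure D1:**
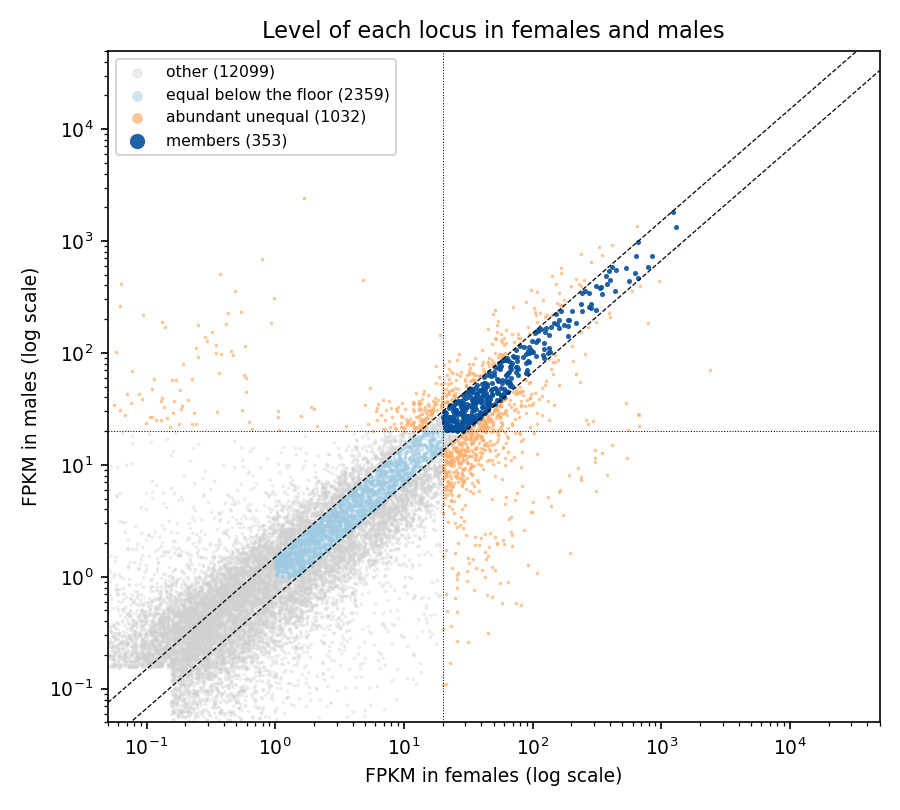
FPKM in females (x axis) and males (y axis), both on log scales, for loci tested by Cuffdiff with a position of their own and a span of 1000 to 20000 bases; loci at 0 in a sex or under 0.05 are not drawn. The 353 shared loci (members, dark blue) fill the band between the dashed lines, which mark a ratio of 1.5, beyond the dotted lines at 20 FPKM.

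A few loci carried much of the summed level. The 10 most abundant shared loci held 24.9% of the summed FPKM of all 353 in females and 25.2% in males. GENE_0074166 (Scaffold13:2140448-2142358) stood first by the lower sex, with 1303 FPKM in females against 1340 in males in the authors' deposited table. GENE_0134222 (Scaffold269:236160-237475) followed with 1241 and 1803 FPKM in the authors' deposited table, close to the limit of the ratio. Both loci are short, spanning 1911 and 1316 bases, and each was listed with a single isoform.

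GENE_0110654 (Scaffold121:199464-201199) had 851 FPKM in females against 731 in males in the authors' deposited table. GENE_0006757 (Scaffold3:2013068-2015400) leaned to males, with 662 and 974 FPKM in the authors' deposited table. GENE_0054907 (Scaffold113:893374-895398) had 634 FPKM in females against 740 in males in the authors' deposited table. The direction of the small differences varied among the 10 most abundant loci and depended on the tool: 6 were higher in males by Cuffdiff, and 8 leaned to males by edgeR in the authors' deposited tables.

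GENE_0003344 (Scaffold825:56278-58431) was higher in females, with 788 against 584 FPKM in the authors' deposited table. GENE_0157457 (Scaffold505:176765-177938) had 529 and 579 FPKM, and GENE_0172159 (Scaffold81:945742-947597) had 448 and 553 FPKM, females first, in the authors' deposited table. GENE_0113530 (Scaffold136:118506-124469) had 629 FPKM in females against 517 in males in the authors' deposited table. With a span of 5964 bases it was the longest of the 10, and its average log2 CPM (read counts scaled to the library total but not to length) of 11.83 was the highest of any shared locus. The ninth by the lower sex, GENE_0109607 (Scaffold116:1003157-1008059), had 657 and 462 FPKM, but the authors' edgeR table gave it a far lower read level, as described below.

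The loci nearest to equality had 24.5 to 101 FPKM in the lower sex, in a range that ran to 1303. GENE_0131719 (Scaffold25:508097-512695) had 101 FPKM in each sex in the authors' deposited table. GENE_0157617 (Scaffold509:34256-35281) had 24.5 FPKM in each sex, and GENE_0008829 (Scaffold166:124-3409) had 40.3 FPKM in females against 40.2 in males, in the authors' deposited table. The edgeR log2 fold changes of these loci in the authors' deposited table were 0.24, 0.31 and 0.60 toward males, and that of GENE_0008829 lay beyond the 0.58 that corresponds to a ratio of 1.5 (edgeR adjusted p = 0.622). Across the 353 loci the ratio had almost no rank relation to the level of the lower sex (Spearman's rho -0.017 over loci that are no independent replicates). The rule cut both the ratio and the level, so nothing is read from that value.

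The limits of the rule lie within a continuous range of values. The loci just inside the floor were GENE_0143471 (Scaffold349:248900-250041) with 20.2 FPKM in its lower sex, the females, and GENE_0176058 (Scaffold97:143484-145224) with 20.2 FPKM in its lower sex, the males, in the authors' deposited table. Just outside were GENE_0138551 (Scaffold30:29040-41327) with 19.97 FPKM and GENE_0090702 (Scaffold179:403251-404442) with 19.9 FPKM, both in females. At the limit of the ratio, GENE_0020693 (Scaffold770:72819-81706) and GENE_0058565 (Scaffold253:371322-379942) stood just inside at 1.4952 and 1.4954. GENE_0131801 (Scaffold25:891146-892759) and GENE_0015160 (Scaffold699:6966-10261) stood just outside at 1.5026 and 1.5037. Another 96 loci of the same kind were within the ratio but reached 20 FPKM in the higher sex only.

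The edgeR table of the same libraries placed the shared loci at a different midpoint. It held 350 of the 353 loci. Their median log2 fold change of males over females was 0.24 by edgeR in the authors' deposited table, whereas the Cuffdiff median over the 353 loci was 0.02. The difference between the tools, edgeR minus Cuffdiff, was nearly the same for most loci, with a median of 0.24 and an interquartile range from 0.20 to 0.27. Over all 32017 loci with finite values from both tools the median difference was 0.22. The count of loci leaning to males therefore depended on the tool: 181 of 353 by Cuffdiff and 257 of 350 by edgeR. With the median difference of all loci subtracted, 183 of the 350 leaned to males by edgeR. The sums of the implied CPM levels over all edgeR loci also differed between the sexes, with 1002320 in females and 1117956 in males, and their part in the shift was not tested.

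**Figure D2:**
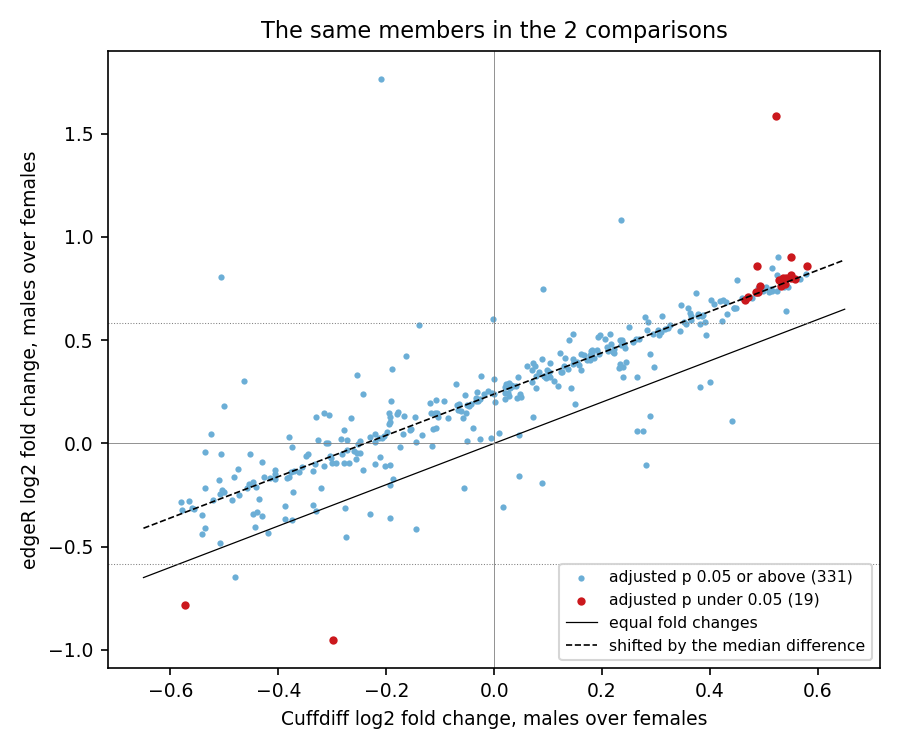
Log2 fold change of males over females by Cuffdiff (x axis) and by edgeR (y axis) for the 350 shared loci in both tables. The points follow the dashed line, shifted upward by the median difference of 0.24, rather than the solid line of equal fold changes; red points are the 19 loci past an edgeR adjusted p of 0.05, and dotted lines mark a 1.5-fold difference.

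By the edgeR table, 278 of the 350 loci (79.4%) were within 1.5-fold of equality. Of the others, 69 lay beyond it toward males and 3 toward females. After the subtraction, 326 were within the limit, with 11 beyond it toward males and 13 toward females. Across all 37449 loci of the authors' edgeR table, 18.0% passed an adjusted p of 0.05, and 19 of the 350 shared loci did so. The rule used the same contrast, so nothing is read from that count. Of the 19 loci, 17 were higher in males, where the background over all loci was 8.4%, and 2 were higher in females, where it was 9.58%. All 17 had a Cuffdiff log2 fold change of at least 0.3 toward males. An unadjusted edgeR p under 0.05 was listed for 60 of the 350 loci.

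Cuffdiff called none of the 353 loci, against 17.5% of all 41996 loci it tested, and 6 of the 353 had an unadjusted p under 0.05. Small differences were out of reach of both tools. The smallest absolute log2 fold change called anywhere was 0.72 by Cuffdiff and 0.68 by edgeR in the authors' deposited tables, both beyond the 0.58 that corresponds to a ratio of 1.5. Cuffdiff called 0 of 11491 tested loci within that ratio, and edgeR called 0 of 11856 loci within it. The absence of a call therefore does not show that a shared locus was expressed equally.

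Among the loci that edgeR called, GENE_0156614 (Scaffold5:1854851-1867936) differed most. It had 25.4 FPKM in females against 36.5 in males in the authors' deposited table, where Cuffdiff listed a log2 fold change of 0.52. The authors' deposited table of edgeR gave it 1.59, with an adjusted p of 1.38e-05. GENE_0150253 (Scaffold42:294811-297466) had 45.9 and 67.2 FPKM, with an edgeR log2 fold change of 0.90 and an edgeR adjusted p of 0.00602 in the authors' deposited table. Its edgeR value exceeded that of Cuffdiff by 0.35, more than the upper quartile of 0.27 over the shared loci. Among the 10 most abundant loci, edgeR called GENE_0134222 (log2 fold change 0.77, edgeR adjusted p = 0.0277) and GENE_0006757 (0.79, edgeR adjusted p = 0.0107), both toward males, in the authors' deposited table.

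The 2 loci called toward females had several isoforms. GENE_0001056 (Scaffold43:243854-253107) had 27.1 FPKM in females against 22.0 in males in the authors' Cuffdiff table as deposited. Its edgeR log2 fold change was -0.95 with an edgeR adjusted p of 0.0241 in the authors' deposited table. GENE_0058741 (Scaffold184:616449-631262) had 39.4 and 26.5 FPKM, with an edgeR log2 fold change of -0.78 and an edgeR adjusted p of 0.0232 in the authors' deposited table. These loci were listed with 8 and 4 isoforms.

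For 11 loci the difference between the tools departed from its median by more than 0.5 log2 units, and the loci named next were chosen after their values were seen. GENE_0001494 (Scaffold120:743496-754251) had 31.3 FPKM in females against 27.1 in males, yet the authors' deposited table of edgeR gave a log2 fold change of 1.77 (edgeR adjusted p = 0.0950). GENE_0109607, among the 10 most abundant by FPKM, had log2 fold changes of -0.51 by Cuffdiff and 0.80 by edgeR in the authors' deposited table. Neither locus is on the same side of equality in both tables. The side differed between the tools for 85 of the 350 shared loci, mostly without so large a departure from the median difference. Of the 85, 81 were higher in males by edgeR.

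The label of abundance held for most of the 350 loci by the second measure as well. Their median average log2 CPM was 6.42 in the authors' deposited table of edgeR, against 2.35 for all loci there, and 307 lay above the upper quartile of all loci. Another 8 lay below the median of all loci. The ratio of CPM to FPKM has the unit of a length in kb, with a median of 1.53 kb over the shared loci. It was under 0.1 kb for 4 loci. GENE_0147795 (Scaffold396:296502-300208), named after its values were seen, had 123 FPKM in females against 108 in males but an average log2 CPM of only 1.73 in the authors' deposited tables. For GENE_0109607 the ratio was 0.148 kb over a span of 4903 bases. The tables conflict on the level of these loci, and their FPKM is uncertain. At the other end, the ratio exceeded the span of the locus for 29 of the 350 loci (8.29%). It did so for 11.6% of the loci that reached 20 FPKM but differed by more than 1.5-fold and for 55.5% of all loci of the same kind, so it is common in these tables and is no measure of transcript length.

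Among the shared loci, the longer ones were listed with more isoforms. The median span of the shared loci was 2960 bases, against 3390 bases for all loci of the same kind. It was 2959 bases for the 1050 loci that reached 20 FPKM in a sex but differed by more than 1.5-fold. These are called the unequal loci below. The 2359 loci within the same ratio that had 1 FPKM or more in each sex and stayed under 20 FPKM, called the weaker equal loci, had a median span of 4276 bases. Span is part of the rule and was not tested. Among the shared loci the median span fell from 3834 bases at 20 to 50 FPKM to 1968 bases at 100 to 500 FPKM (Spearman's rho between level and span -0.19 across 353 loci). FPKM is itself scaled by transcript length, which the span contains.

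Most shared loci, 269 of 353, were listed with a single isoform. Of the remaining 84 loci (23.8%, 95% Clopper-Pearson interval 19.4% to 28.6%), 30 had 2 isoforms, 21 had 3, 17 had 4 and 16 had 5 or more. The interval covers counting error only. The share was 14.4% when an isoform had to reach 1 FPKM in a sex and 11.6% when it had to hold 10% of the locus in a sex, and 36 of the 298 isoforms at these loci were listed at 0 in both sexes. As listed, the share with 2 or more isoforms was 19.0% (16.6% to 21.5%) for the unequal loci, 25.3% (23.6% to 27.1%) for the weaker equal loci and 15.1% (14.6% to 15.7%) for all 16145 loci of the same kind. The intervals of the shared loci overlapped those of the first 2 groups.

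The share with 2 or more isoforms rose with span in each of the 4 groups. Of the shared loci, 7.03% had 2 or more isoforms at 1000 to 2000 bases, 16.7% at 2000 to 5000, 41.8% at 5000 to 10000 and 63.2% at 10000 to 20000 bases. The unequal loci had 6.59%, 14.6%, 32.5% and 51.0% in the same classes, and the weaker equal loci had 4.64%, 19.7%, 34.4% and 49.8%. All loci of the same kind had 3.06%, 11.0%, 24.2% and 40.3%. Isoform number and span had a Spearman's rho of 0.45 across the 353 loci. No shared locus with 500 FPKM or more in both sexes had a second isoform. For these loci, 0 of 8 allows a share of up to 36.9% (95% Clopper-Pearson).

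**Figure D3:**
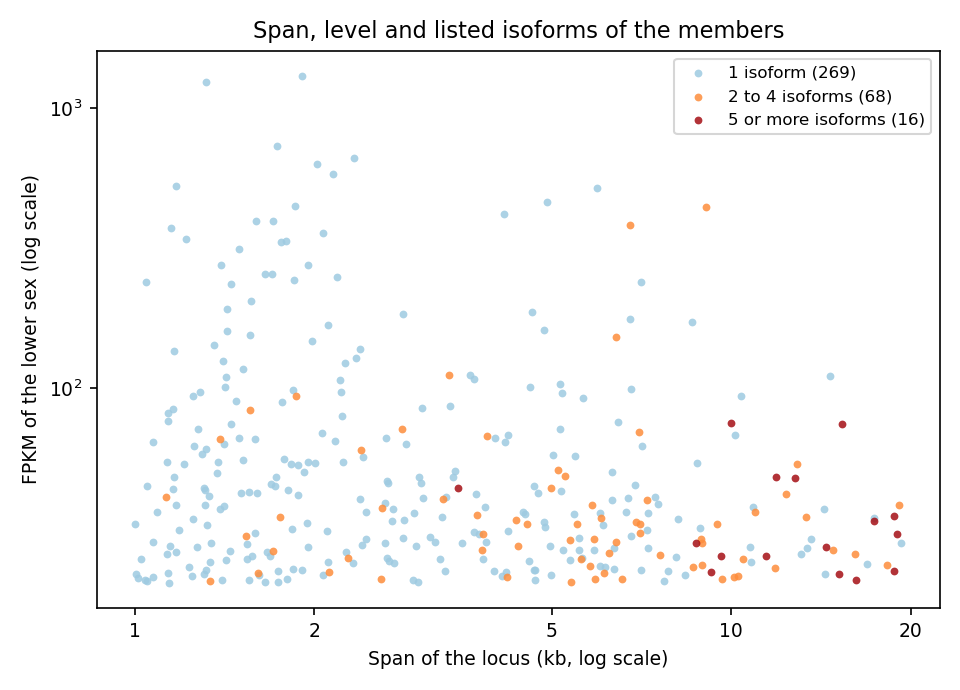
Span of each of the 353 shared loci in kb (x axis) and FPKM of the lower sex (y axis), both on log scales, coloured by the number of listed isoforms. Loci with 5 or more isoforms (16, dark red) lie mainly to the right at low FPKM. The loci at 500 FPKM or more in the lower sex have 1 isoform.

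The loci with the most isoforms had 9 each. GENE_0003708 (Scaffold228:283296-297690) had 27.0 FPKM in females against 29.0 in males in the authors' deposited table. GENE_0001245 (Scaffold63:636269-647688) had 35.0 and 25.1 FPKM, and GENE_0006301 (Scaffold11:777250-786852) had 25.1 and 30.4 FPKM, females first, in the authors' deposited table. All 3 lay near the abundance floor and spanned 9603 to 14395 bases.

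The FPKM shares of the isoforms changed by under 10 percentage points at most shared loci with 2 or more isoforms. The leading isoform held a median of 91.9% of the locus FPKM in females and 90.9% in males over the 84 loci with 2 or more isoforms. In 41 of the 84 loci the same isoform held at least 90% in both sexes. The largest change of any isoform's share between the sexes was under 10 percentage points for 61 of the 84 loci and at least 20 points for 9. These shares are pooled per sex and have no error.

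A different isoform led in each sex at 6 of the 84 loci. At GENE_0019158 (Scaffold1033:10287-11626), CUFF.2545.1 held 82.7% of the locus in females and 38.6% in males, and CUFF.2545.2 held the rest. The locus totals were 20.5 and 24.1 FPKM in the authors' deposited table. At GENE_0103354 (Scaffold414:90062-100334), CUFF.53803.2 held 75.5% in females and 32.1% in males, and CUFF.53803.1 held 24.5% and 67.9%. At GENE_0006301, CUFF.3991.12 led in females with 61.7% and CUFF.3991.13 in males with 57.4%. By edgeR, in values looked up after the shares were seen, the isoforms that led in females, CUFF.2545.1, CUFF.53803.2 and CUFF.3991.12, leaned to males in the authors' deposited table, by 0.97, 1.04 and 0.71 on the log2 scale. The isoforms that led in males, CUFF.2545.2, CUFF.53803.1 and CUFF.3991.13, had 0.34, 0.44 and -0.79 on the same scale. A fold change compares an isoform between the sexes and does not rank the isoforms within a sex. At each of these loci the isoform that led in females had the more male-leaning edgeR value, opposite to the shift in FPKM share. The tools therefore conflict on these shifts. None of these isoforms was called by either tool, with Cuffdiff q values from 0.454 to 0.607 in the authors' deposited table.

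Cuffdiff called 3 of the 483 tested isoforms of the shared loci, where it called 15.0% of all isoforms it tested. Most shared loci have a single isoform, whose level is the locus level that the rule held near equal. Nothing is therefore read from that count. All 3 called isoforms were higher in females. At GENE_0006390 (Scaffold10:1265173-1276140) the totals were 36.1 FPKM in females against 36.6 in males in the authors' deposited table. The isoform CUFF.1481.19 had 36.0 FPKM in females against 20.2 in males, falling from 99.7% to 55.3% of the locus (Cuffdiff q = 0.0481 in the authors' deposited table). The isoforms CUFF.1481.21 and CUFF.1481.22 were listed at 0 in females and at 7.13 and 9.01 FPKM in males. The authors' edgeR isoform table gave CUFF.1481.19 a log2 fold change of -0.35 (edgeR adjusted p = 0.809), and no value from it was matched to CUFF.1481.21 and CUFF.1481.22.

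The other Cuffdiff-called isoforms belonged to the loci that edgeR called toward females. CUFF.20252.7 of GENE_0058741 had 16.7 FPKM in females against 1.98 in males in the authors' deposited table (Cuffdiff q = 0.0111). It was also called by edgeR, with a log2 fold change of -1.59 (edgeR adjusted p = 0.00923), and was the isoform that both tools called. CUFF.55264.2 of GENE_0001056 had 9.00 and 3.03 FPKM in the authors' deposited table (Cuffdiff q = 0.00925). By edgeR this isoform had -3.64 on the log2 scale, at a low read level, in the authors' deposited table (edgeR adjusted p = 0.613).

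Of the 523 isoforms of shared loci in the edgeR isoform table, 15 passed an adjusted p of 0.05, against 12.3% of all isoforms there. The rule used the same contrast, so nothing is read from that count either. The 15 isoforms belonged to 12 loci, 11 of them with 2 or more isoforms, and 9 of those 11 were not called as whole loci. Within a locus the tools often ranked the isoforms differently. The isoform with the highest average CPM by edgeR was a leading isoform by Cuffdiff in 30 of the 84 loci, although CPM is not scaled by length and FPKM is. At GENE_0006390, for example, CUFF.1481.8 had 0.0929 and 0.198 FPKM but the highest average log2 CPM of the locus, 6.66, in the authors' deposited tables. Isoform shares at these loci are uncertain for that reason.

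**Figure D4:**
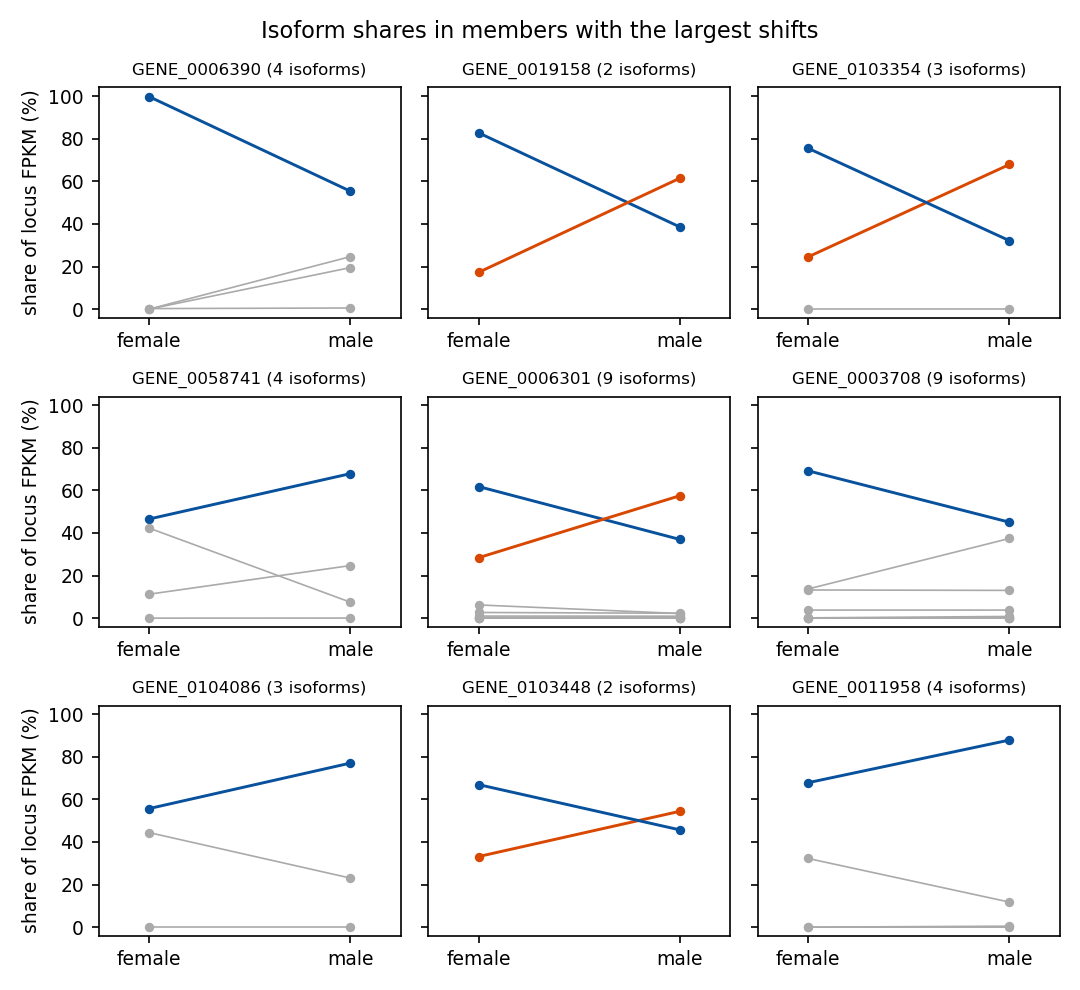
Share of the locus FPKM held by each listed isoform in females and males (y axis, percent) for the 9 shared loci with a change of at least 20 percentage points. Blue marks the leading isoform in females, orange the leading isoform in males where it differs, and grey the others; at GENE_0019158, GENE_0103354, GENE_0006301 and GENE_0103448 the lines of the leading isoforms cross.

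The shared loci were scattered over the assembly. They lay on 218 scaffolds, of which 141 held a single one, and the most on 1 scaffold was 8, among 214 loci of the same kind on Scaffold2. No shared locus overlapped another locus. This follows from the rule, since among 46401 distinct scaffold positions in the table none overlapped another, and loci that overlap are listed at the same position. The gap to the nearest listed locus had a median of 1106 bases, against 1105 bases for the unequal loci and 877 bases for all loci of the same kind.

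The share of loci with a shared locus close by was higher among the shared loci than in the comparison groups, with intervals that did not overlap. Another shared locus lay within 10000 bases of 41 of the 353 (11.6%, 95% Clopper-Pearson interval 8.47% to 15.4%). The same distance held a shared locus for 2.76% (1.86% to 3.94%) of the unequal loci, 4.41% (3.62% to 5.32%) of the weaker equal loci and 2.50% (2.26% to 2.75%) of all loci of the same kind, which include the shared ones. Nearness to the own kind was not particular to the shared loci. An unequal locus lay within that distance of 19.0% of the unequal loci, against 7.05% of all loci of the same kind. Neighbouring loci are not independent and each pair is counted from both sides, so the intervals are too narrow, and no test of position was run. Whether 2 neighbouring loci belong to a single gene cannot be told from the tables.

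The 41 loci formed 20 stretches, 1 of 3 loci and 19 of 2. In 13 stretches no other locus was listed in between. The stretch of 3 was on Scaffold1:560399-585399, where GENE_0104770, GENE_0011958 and GENE_0033633 had FPKM of 39.5, 34.2 and 33.1 in females and of 27.3, 44.5 and 28.0 in males in the authors' deposited table. Their small differences did not point the same way. On Scaffold37:469133-473005, GENE_0145406 and GENE_0145407 stood 1125 bases apart, with FPKM of 276 and 311 in females and of 257 and 239 in males in the authors' deposited table. This was the shortest stretch of 2 loci, and both of its loci were far more abundant than the median shared locus. A locus called by edgeR was in 1 of the 20 stretches, where GENE_0058565 stood 545 bases from GENE_0078872 on Scaffold253.

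Most nearest neighbours stayed under 20 FPKM, for the shared loci as for the comparison groups. The nearest tested locus with a position of its own within 10000 bases existed for 293 shared loci, and the median FPKM of its higher sex was 3.12. That median was 2.68 for the unequal loci, 1.78 for the weaker equal loci and 1.44 for all loci of the same kind. In 18 of the 293 the nearest locus was itself a shared locus. It reached 20 FPKM for 18.4% (14.2% to 23.4%) of them, close to the 18.8% (16.3% to 21.6%) of the unequal loci and above the 10.3% (9.79% to 10.8%) of all loci of the same kind. It was itself within a ratio of 1.5 for 41.6% (35.9% to 47.5%), against 18.8% (16.3% to 21.6%) for the unequal loci and 43.3% (41.1% to 45.5%) for the weaker equal loci. For all loci of the same kind that share was 27.9% (27.1% to 28.6%). The interval for the level of the neighbours overlapped that of the unequal loci, and the interval for their ratio overlapped that of the weaker equal loci.

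A locus that edgeR called sex-biased lay within 10000 bases of 100 shared loci (28.3%, 23.7% to 33.3%). The share was 48.3% (45.2% to 51.4%) for the unequal loci, 26.7% (24.9% to 28.5%) for the weaker equal loci and 32.4% (31.7% to 33.2%) for all loci of the same kind. An unequal locus lay that near to 8.50% (5.81% to 11.9%) of the shared loci, 19.0% (16.7% to 21.6%) of the unequal loci, 6.23% (5.29% to 7.28%) of the weaker equal loci and 7.05% (6.66% to 7.46%) of all loci of the same kind. In both counts the interval of the shared loci lay below that of the unequal loci and overlapped those of the weaker equal loci and of all loci of the same kind.

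**Figure D5:**
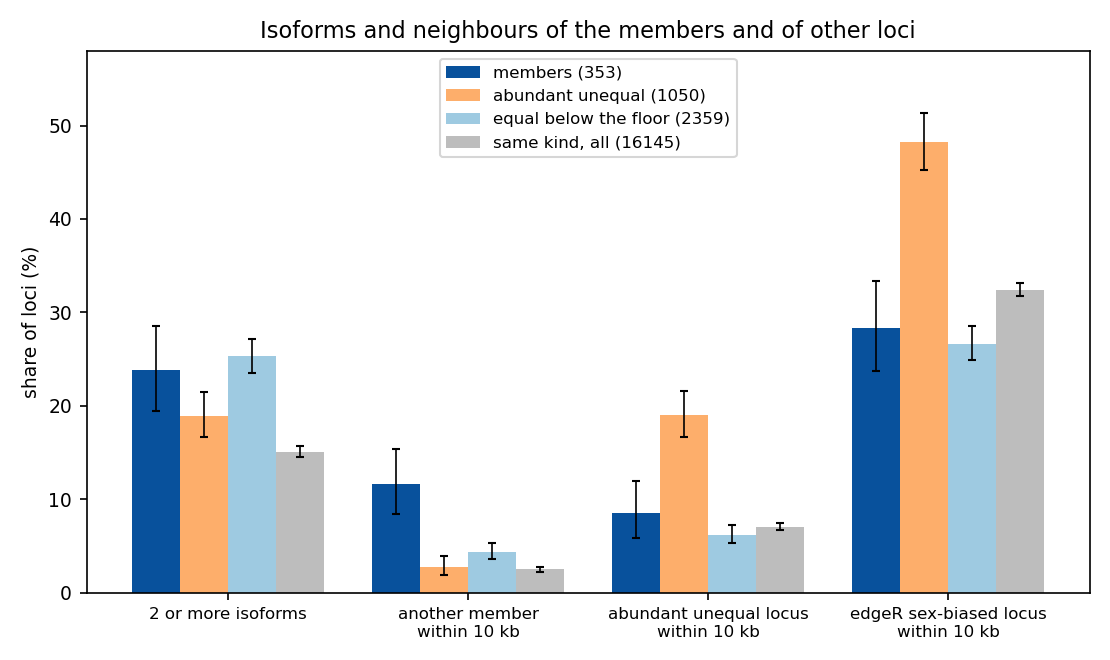
Share of loci (y axis, percent) with 2 or more isoforms and with a neighbour of each kind within 10 kb, for the shared loci (members) and the 3 comparison groups; error bars are 95% Clopper-Pearson intervals. The shared loci stand highest for another shared locus nearby, at 11.6%, and the unequal loci stand highest for a sex-biased neighbour, at 48.3%.

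The part of the total RNA held by the shared loci depended on the unit. By the implied CPM over the loci of the edgeR table, the 350 loci held 5.99% of the female and 6.48% of the male total. The unequal loci held 12.7% and 13.9%. By FPKM the shared loci held 25.2% of the female and 20.2% of the male sum over all loci of the same kind. Over the whole Cuffdiff table they held only 0.0405% and 0.0811% of the FPKM sums. Loci spanning under 200 bases held 94.0% of the female and 93.2% of the male FPKM sum there, so that sum is no measure of the RNA.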

How the data were processed

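Poly(A) RNA of 4 strand-specific libraries, 2 per sex, was compared by the authors, and the submitters' processing notes name TopHat, Cufflinks, Cuffdiff and edgeR without versions. The deposited Cuffdiff tables hold 1 pooled FPKM value per sex, the log2 fold change, the p-value and the q-value, per the file headers. The authors' deposited edgeR tables hold the log2 fold change, the average log2 CPM and the p-value with its adjusted value. All 6733 loci of the table named for the gene map mode stood with identical values in the table named for the Trinity mode (37449 loci), which was read as the full comparison. Tables were joined on the first ID column, and 33763 loci of the authors' edgeR table matched. Deposited starts count from 0 and were raised by 1. Implied CPM per sex was derived from the average log2 CPM and fold change, and isoform shares from FPKM. For isoforms, 39344 of 47585 IDs of the authors' edgeR table matched. Members and lists were chosen with earlier results of these data known, and loci were named by rank rules on level, ratio, isoforms, fold change and position unless stated. The 10 gene lists of the rule were not used, since the files name no genes. Exact Clopper-Pearson 95% intervals cover counting error. Depth per library is unknown. The selection and neighbour search were tested on simulated data. Alternatives were other floors, ratio limits, distances and units. Values were computed in Python 3.11.15 (pandas 2.3.3, numpy 2.4.6, scipy 1.17.1) and drawn with matplotlib 3.10.9.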

Additional observations from a re-analysis of the deposited data

How the results depend on the processing

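The number of shared loci followed its limits: 708 at a floor of 10 FPKM, 122 at 50 FPKM, 218 at a ratio limit midway between 1 and 1.5, 544 at a ratio of 2, 622 with no limit on span and 552 with repeated positions allowed. Admitting loci left untested for too many fragments could add none, since all 39 were listed at 0 FPKM in 1 sex or both. Of these, 26 were among the 100 loci with the highest average log2 CPM by edgeR, so the listed 0 is not read as absence. The 19 loci called by edgeR became 2 at an adjusted p of 0.01, 35 at 0.10, 10 at a floor of 50 FPKM and 1 at that narrower ratio limit. The count within 1.5-fold by edgeR was 308 after centring on the median of all loci. The share with 2 or more isoforms was 14.4% with isoforms of at least 1 FPKM and 11.6% with isoforms of at least 10% of the locus. A different leading isoform remained at 3 loci where it had to be 1.5 times the next. The share with another shared locus nearby was 9.63% within 5000 and 13.3% within 20000 bases. That with a sex-biased neighbour was 20.7% and 40.2% at these distances, and 30.9% by Cuffdiff calls. The share of the summed level moved from 0.0405% to 5.99% in females and from 0.0811% to 6.48% in males with implied CPM, and to 25.2% and 20.2% over loci of the same kind; the last and the subtraction of the median difference between the tools were chosen after seeing the data. Leaving out libraries was not possible with values pooled by sex. No paired analysis was possible because the tables hold no value per library.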

Other observations

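The rule left out some of the most abundant loci. Among the 100 loci with the highest average log2 CPM in the authors' edgeR table that were listed by Cuffdiff, 33 had an edgeR fold change within 1.5-fold of equality. Of these 33, 9 were among the shared loci, 8 shared their position with another locus, 5 had a span out of range and 7 exceeded the ratio of 1.5 by Cuffdiff. The other 4 missed the rule for other reasons. Of all 100, 26 were left untested by Cuffdiff for too many fragments, and these may include some of the 33. In all, 14 of the 100 were shared loci.

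The other 3 shared loci were missing from the edgeR table. GENE_0150665 (Scaffold423:87725-88863) had 88.8 FPKM in females against 81.5 in males, GENE_0158629 (Scaffold523:68688-82071) had 28.7 and 26.9 FPKM, and GENE_0039347 (Scaffold283:384982-386231) had 21.3 and 28.8 FPKM in the authors' deposited table. Each was listed with 1 isoform.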
